A study of Mus musculus with 8 samples.

Results

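Cytoplasmic mRNA is taken apart by a small set of conserved machines, and 52 genes that encode them are described here in bone marrow-derived macrophages (BMDMs) with and without Nudt21. The members were the rows of a fixed list of symbols, 52 of the 21080 genes in the deposited tables. All 52 were found, and all 52 had a mean coverage of at least 0.5 over the 8 samples, the filter that left 16284 genes for testing. They comprise 10 subunits of the CCR4-NOT deadenylase, 4 BTG/TOB adaptors, the 2 subunits of PAN2-PAN3, 9 decapping factors, 7 LSM proteins, the exonuclease Xrn1, 11 exosome genes and 8 factors of nonsense-mediated decay (NMD).

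RNA-seq was available for 4 groups of 2 samples, and each sample pooled BMDMs of 2 mice. The sample titles repeat the same replicate numbers at both times, and whether the times share pools is not stated. WT mice (sex-matched littermates, C57BL/6) carried LysM-Cre, and Nudt21-cKO mice carried LysM-Cre together with Nudt21 fl/fl alleles, so that both genotypes shared the Cre and the deletion was limited to LysM-expressing (myeloid) cells and their precursors from the time LysM is active. Each genotype was sampled at 0 h and after overnight IFNγ (50 ng/ml) followed by LPS (50 ng/ml) for 4 h. Values are the coverage that the authors deposited for each sample, read here as the mean number of reads over each base of a gene. Summed over all genes, coverage lay between 14950347 and 17954882 per sample. The read number behind a value is not given. In bulk RNA, fewer cells of a type and less RNA per cell cannot be told apart.

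Most cytoplasmic mRNAs begin to decay when PAN2-PAN3 and then CCR4-NOT shorten the poly(A) tail. The bare body is then either decapped by Dcp2, helped by Dcp1, Edc3, Edc4, Ddx6, Patl1 and the LSM1-7 ring, and degraded 5′ to 3′ by Xrn1, or degraded 3′ to 5′ by the exosome. NMD feeds mRNAs with a premature stop codon into the same routes through Upf1, Upf2, Upf3 and the Smg proteins. In macrophages this machinery limits how long cytokine mRNAs persist after LPS. Nudt21 is the UGUA-binding subunit of cleavage factor Im, which acts earlier, in the choice of the poly(A) site, and a 3′UTR carries the sites that many decay factors read.

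Because UGUA is the sequence that Nudt21 binds, the 3′UTRs of the members were searched for it (TGTA on the sense strand of GENCODE M21 transcripts, 1 transcript a gene, GRCm38). Of the 52 members, 45 (86.5%) held at least 1 TGTA, against 86.9% of the 13512 tested genes with a 3′UTR. The median 3′UTR was 1022.5 bases long in members and 999 bases over all of these genes, with a median of 6.06 and 5.05 TGTA per kilobase. A TGTA match is a description of the sequence and does not show binding. The 30 bases around the TGTA nearest to the annotated 3′ end are shown for 5 members whose coverage differed between the genotypes under every scaling tried below, with the TGTA in capitals and the distance given from its last base to the end of the transcript:
Cnot8: atgtttttaatttTGTAaaataaagattgc
Btg1: atccagagaaatgTGTAttgttggtagttt
Patl1: aaataaaacaaatTGTAtacttgaaaatgt
Exosc8: cagctgtaaaaatTGTAtttgttacactgc
Dis3: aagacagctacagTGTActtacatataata
In Cnot8 (chr11:58118553-58118582, plus strand) the TGTA lay 25 bases from the end, with an AATAAA hexamer after it. It lay 37 bases from the end in Dis3 (chr14:99075230-99075259, minus strand) and 62 in Exosc8 (chr3:54728727-54728756, minus strand). In Patl1 (chr19:11944944-11944973, plus strand) and Btg1 (chr10:96622539-96622568, plus strand) it lay 131 and 254 bases from the end. Exosc8 had 2 TGTA in 100 bases of 3′UTR, whereas the 3′UTR of Lsm7, 133 bases long, had 0. Over the 52 members the number of TGTA in the 3′UTR and the log2 fold change in cKO had a Spearman rho of 0.02 at 0 h and 0.12 at 4 h, given as a description of genes that share 8 libraries (over the 13512 genes the values were 0.11 and 0.07).

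The genotype labels held for Nudt21 itself. Its coverage, scaled so that the 4 samples of a time had the same median gene, was 738 and 666 in WT against 159 and 161 in cKO at 0 h, and 672 and 600.0 against 124 and 103 at 4 h, log2 fold changes of -2.13 ± 0.12 and -2.49 ± 0.12 (SE). All 8 macrophage markers were measured, and their summed coverage on the deposited scale was 64070 to 132928 per sample, whereas the 4 T cell and the 4 B cell markers summed to at most 4.63 and 4.36. The 5 neutrophil markers, some of which macrophages also express, summed to between 18572 and 19494 in WT and between 21167 and 28212 in cKO at 0 h, and to between 14919 and 17864 in WT and between 17078 and 19867 in cKO at 4 h. After centring, 0 of the 5 were called at 0 h and 2 were called lower in cKO at 4 h. Of the 8 macrophage markers, 1 was called higher and 3 lower in cKO at either time. Of the 4 dendritic cell markers 1 was called lower at 4 h, when they summed to between 29.5 and 67.2 in WT and between 25.7 and 34.7 in cKO. The part of these markers in the differences described here was not tested.

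The scaling of the samples bears on every result. On the deposited scale the sample medians over all genes were on average 0.09 higher in cKO at 0 h and 0.36 higher at 4 h, on the log2 scale, and these are the shifts that centring removed. The median over genes of their own differences was 0.09 at 0 h and 0.28 at 4 h. From 0 h to 4 h the sample medians moved by -1.467 in WT and -1.202 in cKO, and the median of the genes' differences was -1.24 and -1.03. Genotypes were therefore compared after centring each sample on its median gene, with limma on log2(coverage + 0.1) over all 16284 genes and Benjamini-Hochberg adjusted p-values (called under 0.05). Scaled coverage, printed below for the genotypes, sets the samples of 1 time to the same median gene. Each call was then repeated on the deposited scale, with equal summed coverage and after quantile normalization. p-values measure the spread between samples of 2 pooled mice, and an exact permutation test of 2 against 2 samples cannot give a p below 0.333. A fit without 1 replicate leaves 1 sample in that group, so the spread used comes from the other groups. Whether a call is kept in such a fit is a description and no separate support.

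In resting BMDMs, loss of Nudt21 went with higher coverage of the deadenylase Cnot8, the decapping enzyme Dcp2, the decapping scaffold Patl1, the LSM ring protein Lsm7 and the exosome nuclease Dis3, and with lower coverage of the adaptor Btg1. These 5 of 52 members higher (9.62%) and 1 lower (1.92%) compare with 5.68% and 4.80% of all genes tested. All 6 calls held under each of the 4 scalings, a rule met by 3.95% of all genes in the higher and 2.89% in the lower direction. The other 46 members did not pass the test after centring. On the deposited scale 9 members were called higher and 1 lower, against 7.63% and 3.13% of all genes, with equal summed coverage 5 and 1, against 4.59% and 4.40%, and after quantile normalization 8 and 1, against 7.97% and 7.95%. By a fold above 1.5 with an unadjusted p under 0.05, the rule the study used, 3 members were higher and 1 lower (5.77% and 1.92%, against 5.98% and 5.87% of all genes). The median log2 fold change of the members was 0.05, against -0.00 over all genes. The coverage of the 52 members spanned a wide range in resting WT cells, from a mean of 65.1 for Tob1 to 6679 for Btg1, with a median of 448 against 151 for all genes tested. Coverage was read as a value per base, so these levels can be set side by side only roughly. The transcript ends used and reads shared with near-identical copies can also move them.

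**Figure D1:**
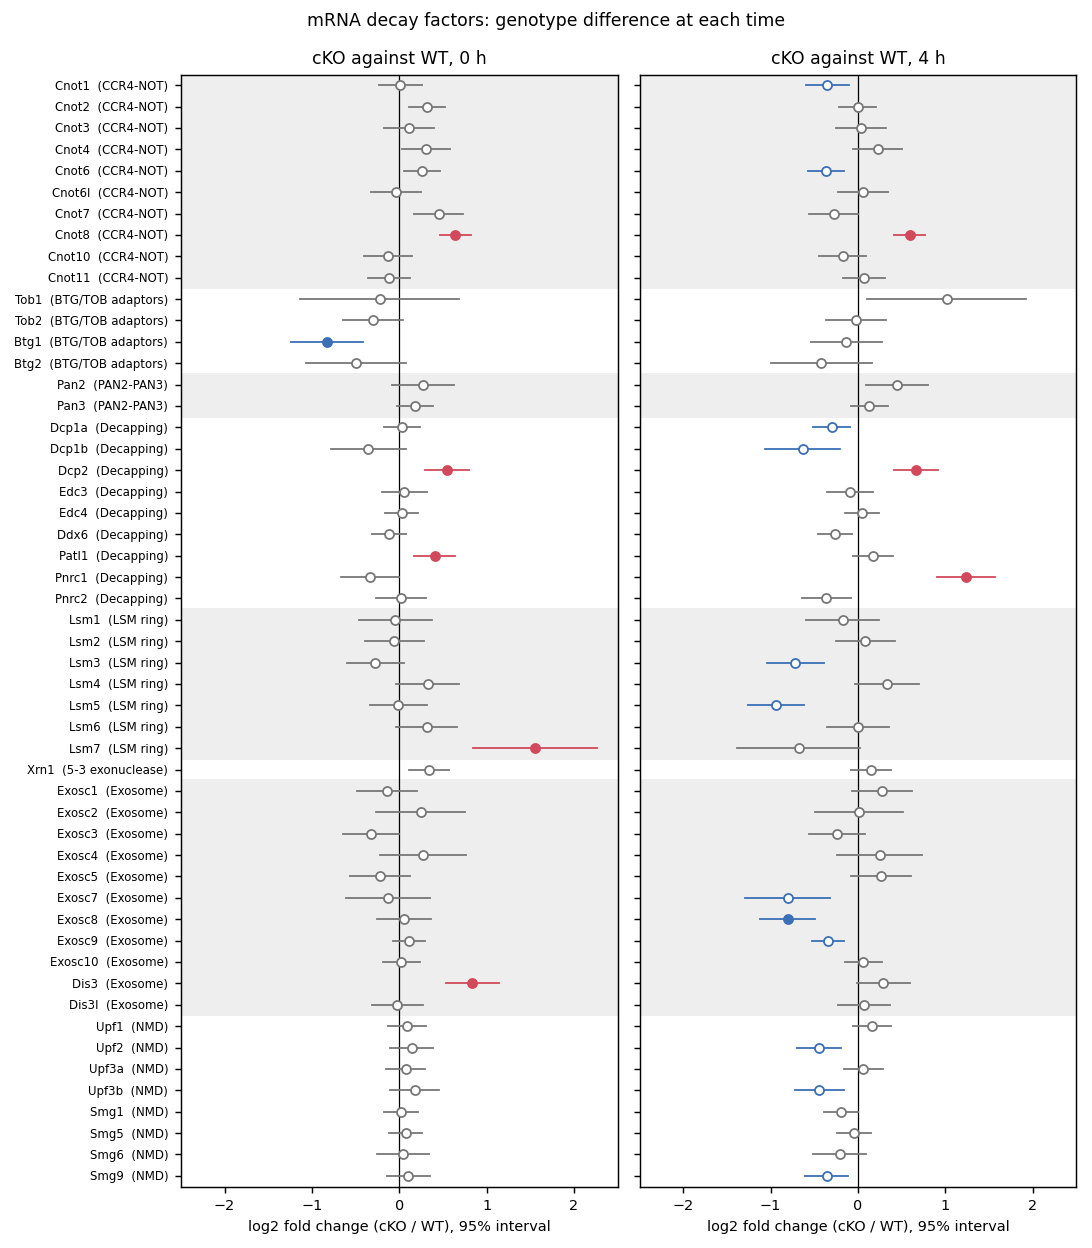
Log2 fold change between cKO and WT (x axis, positive where cKO was higher, with 95% intervals from limma) for all 52 members, ordered by role, at 0 h (left) and 4 h (right). Red and blue mark members called higher and lower, grey those not called, and filled points those called in the same direction under all 4 scalings: 6 at 0 h, and at 4 h 4 of 15.

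Cnot8 is 1 of the 2 alternative catalytic DEDD-family deadenylases of CCR4-NOT (chromosome 11, 58104153 to 58118594, plus strand). Its scaled coverage at 0 h was 1157 and 1075 in WT against 1713 and 1773 in cKO. Both cKO samples stood above both WT samples, a log2 fold change of 0.64 ± 0.07 (SE, adjusted p = 0.00366 from limma), or 1.56-fold. The call was kept on leaving out each replicate in turn, and its adjusted p ranged from 0.00144 to 0.0459 over the alternatives. Reads of a gene and of a near-identical copy elsewhere in the genome can be split between them. Cnot8 has such a copy, Gm18860, as do Cnot1 and Btg1, and none of these copies was listed in the tables. The other 9 CCR4-NOT genes were not called after centring. On the deposited scale 5 of the 10 were called higher (Cnot2, Cnot4, Cnot6, Cnot7 and Cnot8), against 7.63% of all genes, and after quantile normalization 4 (the same without Cnot6), against 7.97%. The 9 included Cnot7, the alternative to Cnot8, at 460.0 and 478 in WT against 619 and 668 in cKO (log2 fold change 0.45 ± 0.12 SE, adjusted p = 0.0550), and the scaffold Cnot1 at 0.01 ± 0.10 (SE).

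The BTG/TOB proteins bind the Cnot7/Cnot8 subunits and bring CCR4-NOT to target mRNAs, and Btg1 also marks quiescent cells. Btg1 had the highest coverage of the 52 members. It was 6984 and 6818 in WT against 4031 and 3765 in cKO at 0 h. The cKO samples were both lower, by a log2 fold change of -0.82 ± 0.17 (SE, adjusted p = 0.0283), or 1.77-fold. The call was lost when any single replicate was left out (adjusted p up to 0.167). Btg2, Tob2 and Tob1 had log2 fold changes of -0.50, -0.30 and -0.23 and did not pass the test.

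Dcp2 removes the 5′ cap. Its scaled coverage at 0 h was 246 and 270.2 in WT against 400.3 and 354 in cKO. Patl1, which bridges deadenylation and decapping, was at 667 and 664 in WT against 893 and 868 in cKO. In both genes the genotypes did not overlap, with log2 fold changes of 0.54 ± 0.11 (SE, adjusted p = 0.0222) and 0.40 ± 0.10 (SE, adjusted p = 0.0441). Each of these calls was lost on leaving out any 1 of the 4 replicates, with adjusted p up to 0.134 and 0.195. The other 7 decapping factors were not called, with log2 fold changes between -0.35 for Dcp1b and 0.06 for Edc3.

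Lsm7 is a subunit of the LSM ring that binds the deadenylated 3′ end. Its scaled coverage at 0 h was 174 and 97.7 in WT against 429 and 343 in cKO. The WT samples lay far apart, and both were below the cKO samples. The log2 fold change was 1.55 ± 0.30 (SE, adjusted p = 0.0211), the largest of the members at 0 h, and it was not called without WT replicate 2 or without either cKO replicate (adjusted p up to 0.134). Lsm7 is a short gene with near-identical copies (Gm10146 and Gm13182) that could share its reads. The other 6 LSM genes were not called, at -0.27 to 0.32.

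Dis3 is the nuclease that gives the RNA exosome its activity. It was at 210.4 and 202 in WT against 384 and 354 in cKO at 0 h, with no overlap, and its log2 fold change was 0.84 ± 0.13 (SE, adjusted p = 0.00920), or 1.79-fold. Without cKO replicate 3 or 4 it was not called (adjusted p up to 0.0793). The 9 core subunits and cofactors measured beside it, Exosc1 to Exosc5 and Exosc7 to Exosc10, lay between -0.32 and 0.27 with no call. Dis3l, the cytoplasmic paralog of Dis3, was at 256 and 273 in WT against 258 and 264 in cKO, and the genotypes overlapped.

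Among the remaining members at 0 h, Xrn1 had a log2 fold change of 0.34 ± 0.10 (SE, adjusted p = 0.0754), and Pan2 and Pan3 of 0.27 and 0.18. The 8 NMD factors lay between 0.02 and 0.18, with 0 calls in limma, against 5.68% of all genes called higher and 4.80% lower. None had an unadjusted p under 0.05 in limma, a rule for which no share of all genes was taken. Upf1, the NMD helicase, was at 863 and 932 in WT against 929 and 974 in cKO.

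At 4 h after LPS, Cnot8 and Dcp2 were again higher in cKO and were joined by Pnrc1, a nuclear receptor coactivator that also binds Dcp1a-Dcp2, while the exosome subunit Exosc8 was lower. After median-centring, 3 of 52 members were called higher (5.77%) and 12 lower (23.1%), against 10.6% and 13.4% of all genes tested. The 12 were Cnot1, Cnot6, Dcp1a, Dcp1b, Lsm3, Lsm5, Exosc7, Exosc8, Exosc9, Upf2, Upf3b and Smg9. The lower calls depended on the scaling: the numbers higher and lower were 21 and 1 on the deposited scale, 9 and 2 with equal summed coverage, and 3 and 4 after quantile normalization. The calls over all 16284 genes also moved, to 4156 higher (25.5%) and 732 lower on the deposited scale, 2324 (14.3%) and 1212 (7.44%) with equal summed coverage, and 1788 and 1704 (10.5%) after quantile normalization. By a fold above 1.5 with an unadjusted p under 0.05, 4 members were higher and 5 lower (7.69% and 9.62%, against 9.87% and 10.4% of all genes). Called in the same direction under all 4 scalings were 3 members higher (5.77%, against 9.50% of all genes) and 1 lower (1.92%, against 4.48%). The median log2 fold change of the members after centring was -0.01, and that of all genes was -0.08.

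**Figure D2:**
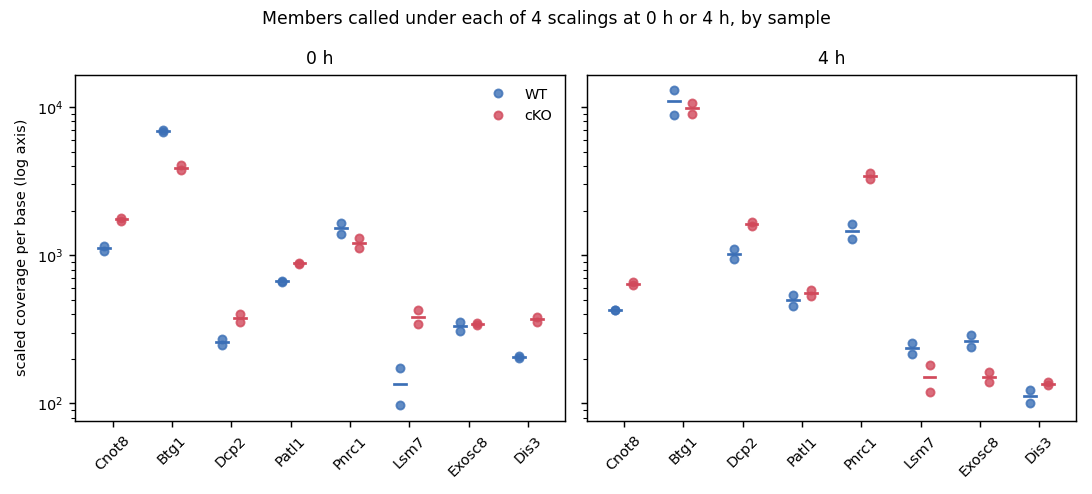
Scaled coverage per base (log axis) of each sample for the 8 members called under all 4 scalings at 0 h or at 4 h. Points are samples (2 per group) and lines are group means, with WT in blue and cKO in red; the cKO samples of Cnot8 and Dcp2 lie above the WT samples at both times, and those of Pnrc1 only at 4 h. Scaling was within a time, so levels are not comparable between the panels.

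Pnrc1 showed the largest rise at 4 h. Its scaled coverage was 1628 and 1294 in WT against 3245 and 3597 in cKO, so that both cKO samples exceeded both WT samples, by a log2 fold change of 1.24 ± 0.14 (SE, adjusted p = 0.00160) or 2.35-fold. At 0 h the order had been the other way, at 1658 and 1394 in WT against 1298 and 1120 in cKO (log2 fold change -0.33, not called). The call at 4 h held without each replicate in turn, and its adjusted p ranged from 0.000182 to 0.0210 over the alternatives.

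Cnot8 was at 426 and 425 in WT against 626 and 656 in cKO at 4 h, a log2 fold change of 0.59 ± 0.07 (SE, adjusted p = 0.00208). Dcp2 was at 1099.7 and 950.1 in WT against 1567 and 1672 in cKO, a log2 fold change of 0.66 ± 0.11 (SE, adjusted p = 0.00518). Neither gene overlapped between the genotypes at 4 h, and the changes in genotype effect from 0 h were -0.05 ± 0.11 (SE) and 0.12 ± 0.15 (SE), neither of which passed the test. Dcp2 was no longer called without cKO replicate 4 (adjusted p = 0.0524), whereas Cnot8 was called without each replicate.

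Of the genes lower in cKO at 4 h, Exosc8, a subunit of the exosome's ring, was at 289 and 240.0 in WT against 163 and 139 in cKO. The log2 fold change was -0.81 ± 0.13 (SE, adjusted p = 0.00567), or 1.75-fold, and -0.45 on the deposited scale (adjusted p = 0.0403). The call was lost without cKO replicate 4. Exosc7, of the same ring, was at 66.5 and 62.4 in WT against 42.8 and 31.7 in cKO (log2 fold change -0.81 ± 0.21 SE, adjusted p = 0.0286), and Exosc9 at 469 and 475 in WT against 362 and 383 in cKO (-0.34 ± 0.08 SE, adjusted p = 0.0188). All 3 were below WT in both cKO samples after centring. Without scaling, Exosc7 was not called (adjusted p = 0.186) and Exosc9, which shares 10.8% of its exonic bases with Ccna2 on the opposite strand, turned to 0.02. Exosc7 also lost its call without WT replicate 1 or 2 or cKO replicate 4, and Exosc9 without either cKO replicate. The other 8 exosome genes were not called at 4 h after centring, and Dis3 among them was at 100.2 and 124 in WT against 134 and 139 in cKO (log2 fold change 0.29, adjusted p = 0.146). As deposited, 4 of the 11 exosome genes (Dis3, Exosc1, Exosc5 and Exosc10) were called higher, at 0.42 to 0.65, against 25.5% of all genes.

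In the LSM ring, Lsm5 was at 341 and 378 in WT against 200.3 and 175 in cKO at 4 h, and Lsm3 at 382 and 410.4 in WT against 219 and 266 in cKO. Both genes had lower values in each cKO sample than in either WT sample, with log2 fold changes of -0.94 ± 0.14 (SE, adjusted p = 0.00352) and -0.72 ± 0.14 (SE, adjusted p = 0.0109). As deposited, these were -0.58 and -0.36, with adjusted p = 0.0516 and 0.152. Lsm3 was not called without cKO replicate 3. Lsm5 also has near-identical copies (Gm10074 and Gm7846). Lsm4 had the opposite sign, at 771 and 585 in WT against 819 and 870 in cKO (0.33, adjusted p = 0.174, called higher on the deposited scale and with equal summed coverage), and Lsm7 was at 257 and 216 in WT against 181 and 120 in cKO (-0.68, adjusted p = 0.150).

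Among the subunits of CCR4-NOT and the decapping factors, 4 further members were called lower after centring and under none of the other scalings. The scaffold Cnot1 had a log2 fold change of -0.35 ± 0.10 (SE, adjusted p = 0.0479), the deadenylase Cnot6 of -0.37 ± 0.09 (SE, adjusted p = 0.0231), the decapping activator Dcp1a of -0.30 ± 0.09 (SE, adjusted p = 0.0471) and its paralog Dcp1b of -0.63 ± 0.18 (SE, adjusted p = 0.0428). As deposited, Cnot1 turned to 0.01 and Dcp1a to 0.06, Cnot6 was at -0.01, and Dcp1b at -0.27. On that scale 0 genes of these groups were called lower, and 5 of the 10 CCR4-NOT genes (Cnot2, Cnot3, Cnot4, Cnot8 and Cnot11) and 4 of the 9 decapping genes (Dcp2, Edc4, Patl1 and Pnrc1) were called higher, against 25.5% of all genes. Each of these 4 lower calls was also lost on leaving out at least 3 single replicates. The central helicase of decapping, Ddx6, was at 2503 and 2398 in WT against 2052 and 2040 in cKO (-0.26, adjusted p = 0.0597).

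Of the 8 NMD genes, Upf2, which links Upf1 to Upf3, was at 198 and 202 in WT against 146.7 and 146.5 in cKO at 4 h. Upf3b, which joins NMD to the exon junction complex, was at 91.6 and 87.5 in WT against 63.9 and 68.1 in cKO, and Smg9, a cofactor of the Smg1 kinase, at 599 and 494 in WT against 419 and 431 in cKO. The cKO samples were below the WT samples in all 3 genes, by -0.45 ± 0.11 (SE, adjusted p = 0.0219), -0.44 ± 0.12 (SE, adjusted p = 0.0355) and -0.36 ± 0.11 (SE, adjusted p = 0.0469) on the log2 scale. As deposited, these values shrank to -0.09 and -0.08 for Upf2 and Upf3b and turned to 0.00 for Smg9, and none was called under another scaling. The call of Upf2 was lost on leaving out any 1 replicate, and those of Upf3b and Smg9 without WT replicate 1 or either cKO replicate. Upf1, Upf3a, Smg1, Smg5 and Smg6 were not called after centring, at -0.21 to 0.16. As deposited, Upf1, Upf3a and Smg5 were called higher, at 0.31 to 0.52. These are 3 of the 8 NMD genes (37.5%), against 25.5% of all genes called higher on that scale. The adaptors Btg1, Btg2, Tob1 and Tob2 were not called at 4 h after centring. Tob1 was at 63.0 and 29.7 in WT against 64.8 and 118 in cKO, and its log2 fold change of 1.01 had a standard error of 0.39. It was called higher on the deposited scale (1.37, adjusted p = 0.0223) and with equal summed coverage (1.16, adjusted p = 0.0451).

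The genotype difference changed between the times for 6 members, by the interaction over all 8 samples (1 higher, or 1.92%, against 2.70% of all genes; 5 lower, or 9.62%, against 4.40%). For Pnrc1 it rose by 1.57 ± 0.20 on the log2 scale (SE, adjusted p = 0.0120). Lsm7 moved from 1.55 at 0 h to -0.68 at 4 h, a change of -2.23 ± 0.43 (SE, adjusted p = 0.0291). These were the only members called under all 4 scalings (1 in each direction, against 2.28% of all genes higher and 1.36% lower), and on leaving out single replicates Pnrc1 lost the call in 3 and Lsm7 in 6 of 8 fits. Exosc8 changed by -0.86 ± 0.19 (SE, adjusted p = 0.0398), Lsm5 by -0.93 ± 0.19 (SE, adjusted p = 0.0363), Cnot7 by -0.73 ± 0.17 (SE, adjusted p = 0.0467) and Cnot6 by -0.62 ± 0.13 (SE, adjusted p = 0.0335). Exosc8 and Lsm5 were called under no other scaling, and Cnot6 and Cnot7 only after quantile normalization, and each of these 4 lost the call in 7 of 8 fits without 1 replicate. Btg1 changed by 0.69 after centring (adjusted p = 0.137) and was called higher under the other 3 scalings, at 0.87 to 0.99. The members called higher and lower in the interaction numbered 2 and 1 on the deposited scale, against 6.36% and 1.52% of all genes, 2 and 1 with equal summed coverage, against 4.42% and 1.85%, and 2 and 3 after quantile normalization, against 651 and 570 of the 16284 genes. By a fold above 1.5 with an unadjusted p under 0.05, 2 members were higher and 7 lower (3.85% and 13.5%, against 7.30% and 8.51% of all genes). The replicate numbers recur at both times. In the fit that blocks on them 3 of the 6 calls were kept and 3 were lost.

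**Figure D3:**
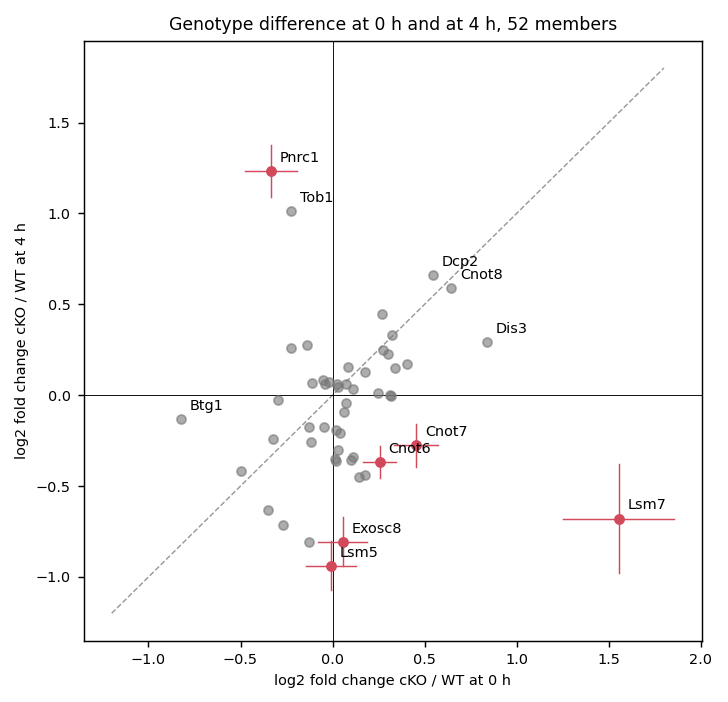
Genotype difference (log2 fold change, positive where cKO was higher) at 0 h on the x axis and at 4 h on the y axis for the 52 members, after median-centring. Red points with standard errors are the 6 members called in the interaction, grey points the rest, and the dashed line marks equal values; Pnrc1 lies above it and Lsm7, Lsm5, Exosc8, Cnot6 and Cnot7 below.

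With stimulation, Dcp2 had the largest rise of the 52 members in both genotypes after centring, and in cKO Btg2 exceeded it after quantile normalization (2.77 against 2.71). On the deposited scale Dcp2 was at 239.7 and 260.1 at 0 h and 894 and 911 at 4 h in WT, and at 398 and 379.8 at 0 h and 1799 and 1868 at 4 h in cKO. All 4 stimulated samples were above all 4 resting samples. The log2 fold change was 3.32 in WT and 3.44 in cKO after centring and 1.85 and 2.24 on the deposited scale, called each time (adjusted p at most 3.83e-05 over the alternatives in WT and 3.73e-05 in cKO). The median gene itself fell with stimulation on the deposited scale (the median shift ran from -2.22 to -0.29 over 10 bins of genes ranked by coverage in WT), and the sign of most members turned with the scaling. In WT, 34 members were called higher and 5 lower after centring, 7 and 37 on the deposited scale and 18 and 16 after quantile normalization. In cKO the numbers were 30 and 9, 7 and 38, and 15 and 16. Of all genes, 38.4% were called higher and 23.7% lower in WT after centring, 13.5% and 60.2% on the deposited scale, and 25.4% and 34.9% after quantile normalization. In cKO the shares were 36.9% and 24.0%, 15.1% and 56.9%, and 24.5% and 35.5%.

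**Figure D4:**
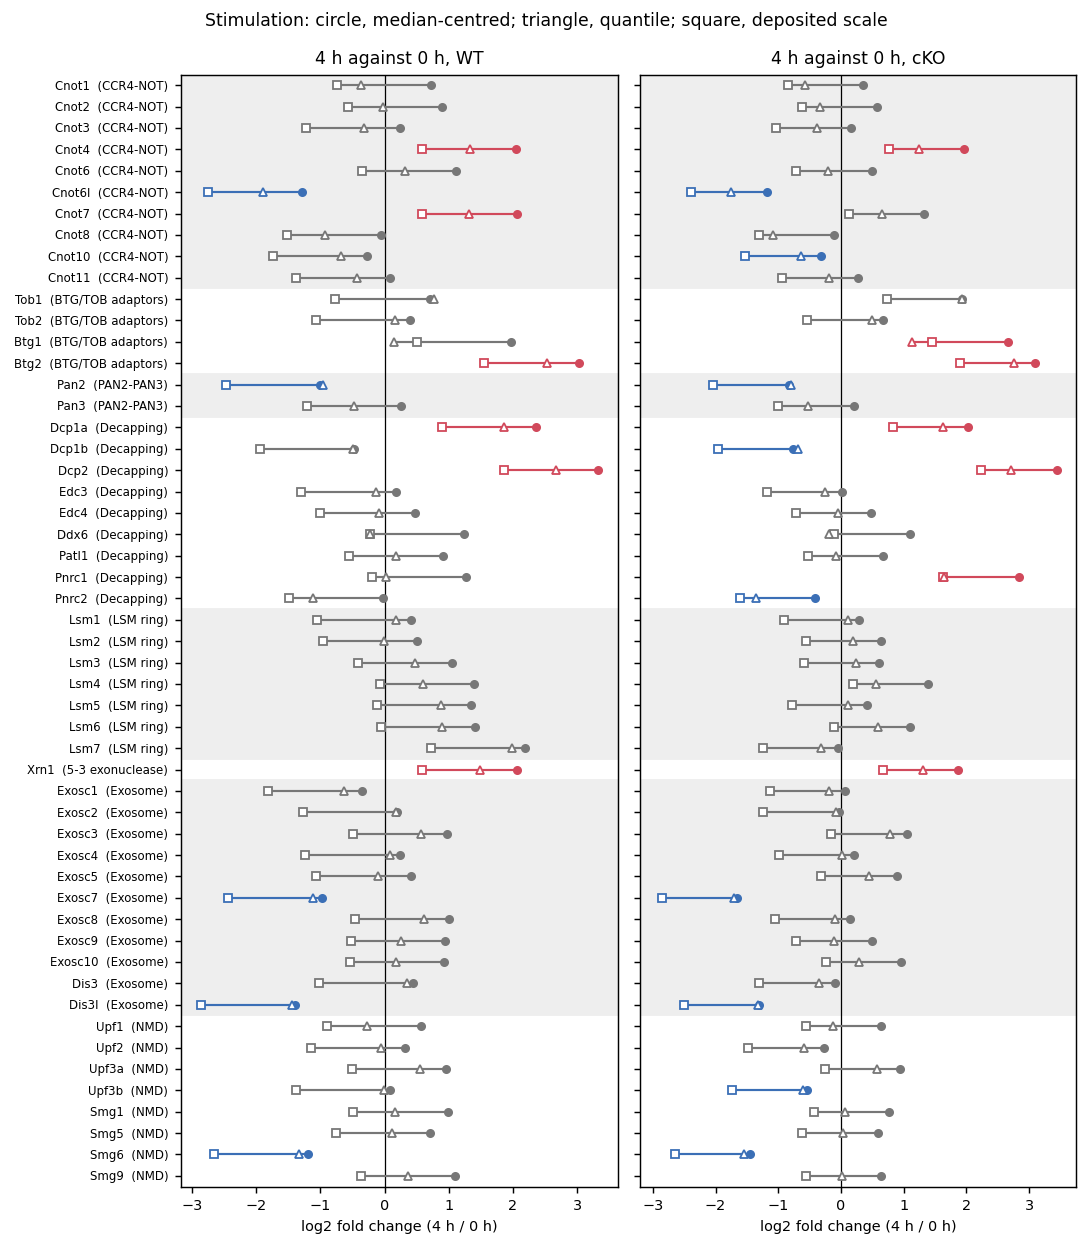
Log2 fold change of 4 h against 0 h (x axis) for the 52 members in WT (left) and cKO (right). Circles are median-centred values, triangles quantile-normalized values, squares values on the deposited scale, and lines span all 4 scalings; red and blue members were called higher and lower under each scaling, and grey lines that cross 0 change sign with the scaling (34 members in WT and 28 in cKO).

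Members called in the same direction under every scaling are therefore given. In WT they were 6 higher (11.5%, against 13.3% of all genes) and 5 lower (9.62%, against 22.7%), and in cKO 7 higher (13.5%, against 14.5%) and 9 lower (17.3%, against 23.0%). Higher in both genotypes were Dcp2, its activator Dcp1a, the 5′ to 3′ exonuclease Xrn1, the ubiquitin ligase Cnot4 and the immediate-early adaptor Btg2. Dcp1a was at 253 and 269 at 0 h and 427 and 552 at 4 h in WT on the deposited scale, and at 281 and 288 against 519.7 and 490.2 in cKO. Xrn1 was at 299.8 and 354 at 0 h and 460.3 and 521 at 4 h in WT, and at 428 and 452 against 717 and 680.4 in cKO. For both genes the samples of 4 h stood above those of 0 h in either genotype. Btg2 rose with a log2 fold change of 3.02 in WT and 3.10 in cKO after centring, and 1.55 and 1.90 on the deposited scale. Cnot4 rose by 2.05 and 1.97 after centring and by 0.58 and 0.77 on the deposited scale.

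Cnot7 met the same criterion in WT, and Btg1 and Pnrc1 met it in cKO. Pnrc1 was at 1613 and 1342 at 0 h and 1323 and 1240.2 at 4 h in WT on the deposited scale, with both samples of 4 h below those of 0 h and no call (adjusted p = 0.119), and at 1292 and 1202 against 3726 and 4021 in cKO. After centring, Pnrc1 was called higher in WT too, by 1.27. Btg1 rose from 4010 and 4040 to 10368 and 11798 in cKO. In WT it was at 6794 and 6564 at 0 h and 10528 and 8468 at 4 h, above 0 h in both samples and not called after quantile normalization (adjusted p = 0.266). Among the 10 members with the largest change after centring, Lsm7 in WT and Tob1 in cKO (2.18 and 1.94) kept their sign under all scalings but not every call, and Lsm6 in WT (1.41) turned to -0.06 on the deposited scale and -0.01 with equal summed coverage.

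Lower in both genotypes under every scaling were the deadenylases Cnot6l and Pan2, the exosome members Exosc7 and Dis3l, and the NMD endonuclease Smg6. On the deposited scale Dis3l went from 249 and 263 to 30.7 and 40.1 in WT and from 256 and 283 to 47.8 and 46.8 in cKO. Cnot6l went from 869.9 and 1059.9 to 122 and 166 in WT and from 991 and 1001 to 190.8 and 189.8 in cKO. Even after centring, the log2 fold changes were -1.40 and -1.31 for Dis3l and -1.29 and -1.19 for Cnot6l, in WT and cKO. Smg6 fell by 1.19 in WT and 1.45 in cKO after centring, Pan2 by 1.01 and 0.83, and Exosc7 by 0.98 and 1.65. In cKO, Cnot10, Dcp1b, Pnrc2 and Upf3b were lower as well under all 4 scalings; whether they differ in this from WT was tested by the interaction, in which none of the 4 was called.

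Many of these genes come in pairs of paralogs, and the ratio of 2 genes within a sample is not changed by a factor that scales the whole sample. The 8 pairs and their ratios were chosen after values had been seen, so they are given with no test. Cnot7 and Cnot8 compete for 1 place in CCR4-NOT. The coverage of Cnot7 divided by that of Cnot8 was 0.397 and 0.445 in WT against 0.361 and 0.377 in cKO at 0 h, and 1.999 and 1.65 in WT against 1.10 and 0.899 in cKO at 4 h. The ratio was thus higher at 4 h in all samples, and at either time the cKO samples lay below the WT samples. Cnot6 and Cnot6l, the alternative EEP-family deadenylases, moved from 0.758 and 0.656 in WT against 0.881 and 0.853 in cKO at 0 h to 4.18 and 3.30 in WT against 2.83 and 2.71 in cKO at 4 h, with the order of the genotypes reversed between the times.

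Dcp1a over Dcp1b went from 1.27 and 1.42 in WT against 1.58 and 1.94 in cKO to 8.61 and 10.7 in WT against 13.6 and 10.7 in cKO. Upf3a over Upf3b lay between 1.42 and 1.74 in the 4 samples at 0 h, and at 4 h it was 3.09 and 2.85 in WT against 4.29 and 4.13 in cKO, so that the genotypes overlapped at rest and the cKO samples lay above at 4 h. Pnrc1 over Pnrc2 was 0.921 and 0.861 in WT against 0.756 and 0.641 in cKO at 0 h, and 2.18 and 2.17 in WT against 6.61 and 6.58 in cKO at 4 h. It was lower in cKO at rest and higher in cKO after stimulation. Dis3 over Dis3l was 0.822 and 0.740 in WT against 1.49 and 1.34 in cKO at 0 h, and 2.65 and 2.96 in WT against 3.22 and 3.32 in cKO at 4 h, above WT in cKO at both times. Btg1 over Btg2 was 39.9 and 29.1 in WT against 32.4 and 22.7 in cKO at 0 h, where the genotypes overlapped, and 15.8 and 17.0 in WT against 17.7 and 22.7 in cKO at 4 h, where they did not. In WT this ratio was lower in both samples at 4 h than in either at 0 h, and in cKO the nearest samples of the times were both at 22.7. Tob1 over Tob2 overlapped between the genotypes at 0 h, and at 4 h it was 0.403 and 0.203 in WT against 0.403 and 0.861 in cKO.

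**Figure D5:**
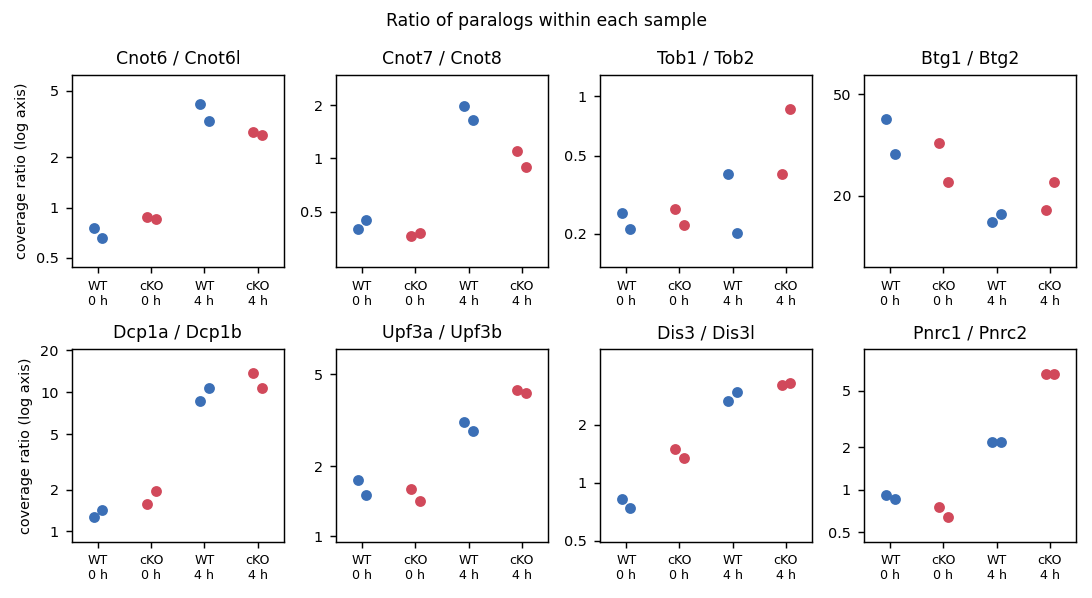
Ratio of the coverage of 2 paralogs within each sample (log axis) for the 8 pairs, by group; points are samples, WT in blue and cKO in red. Cnot7 / Cnot8, Cnot6 / Cnot6l, Dcp1a / Dcp1b, Upf3a / Upf3b, Dis3 / Dis3l and Pnrc1 / Pnrc2 are higher in every sample at 4 h than in any sample at 0 h, and Pnrc1 / Pnrc2 separates the genotypes most at 4 h, at 2.17 to 2.18 in WT and 6.58 to 6.61 in cKO.

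Beside the members, 53 listed genes of mRNA decay were all tested and gave 3 calls higher and 3 lower in cKO at 0 h (5.66% each way, against 5.68% and 4.80% of all genes), and 6 higher and 8 lower at 4 h (11.3% and 15.1%, against 10.6% and 13.4%). These counts moved with the scaling, to 6 and 1 at 0 h and 20 and 3 at 4 h on the deposited scale, to 4 and 4 and 10 and 5 with equal summed coverage, and to 5 and 6 and 8 and 6 after quantile normalization, where the shares of all genes at 0 h were 7.63% and 3.13%, 4.59% and 4.40%, and 7.97% and 7.95% in this order. The cap-binding subunit Ncbp2 was at 686 and 626 in WT against 1414 and 1519 in cKO at 0 h, and at 293 and 226 in WT against 846 and 937 in cKO at 4 h, the largest difference of this list at 4 h (log2 fold change 1.79 ± 0.13 SE, adjusted p = 0.000382, and 1.16 ± 0.13 SE, adjusted p = 0.00340, at 0 h). The poly(A) polymerase Tent4b was higher in cKO at both times, by 0.88 at 0 h and 1.001 at 4 h. At 0 h the translation termination factor Etf1 was higher, by 0.51, and the deadenylase Noct and the scavenger decapping enzyme Dcps were lower, at -0.88 and -0.46. At 4 h the poly(A) polymerases Tent5a and Tent5c were higher, by 1.44 and 1.12, and the exosome cofactor Mphosph6 was lower, at -0.97. Of the calls named here only that of Dcps at 0 h did not hold under all 4 scalings. Called lower at 4 h under all 4 scalings were 3 of the 53 genes of the list, all among the 8, against 4.48% of all genes tested.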

How the data were processed

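RNA-seq of 8 BMDM samples was used, 2 in each of 4 groups assigned from the sample titles (WT and cKO, at 0 h and at 4 h). The 0 h samples were read as unstimulated from their titles, although another label lists the treatment for every sample. The authors aligned paired-end reads to GRCm38 with HISAT2 2.2.1, quantified RefSeq genes with StringTie 2.1.7 and deposited a coverage signal, 1 value per gene and sample. The tables do not name the unit, which was read from the values, and without read numbers no counting interval can be had. The kit is not stated to keep strand, and 4 members (Edc3, Exosc4, Exosc2 and Exosc9) share over 10% of their exonic bases with a gene on the opposite strand. A change in the transcript ends used can also move the mean coverage of a gene, and this was not tested. The authors' own fold changes and p-values were not used, and 0 columns of per-sample values were left out.

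Values were log2(coverage + 0.1), over the 16284 genes with a mean of at least 0.5, centred on each sample's median. All 4 groups entered 1 limma 3.58.1 fit in R 4.3.3 with an intensity trend (4 residual degrees of freedom), and p-values were adjusted over all genes by Benjamini-Hochberg. The study's own rule, a fold above 1.5 with an unadjusted p under 0.05, was an alternative. Others were the scaling, the pseudocount, no filter, no trend, only the 4 samples compared, a replicate block and leaving out each replicate. Printed coverage is scaled within a time, or as deposited for stimulation. The fit was tested on simulated data. Positions and 3′UTRs are from GENCODE M21 (GRCm38); near-identical copies (at least 95% identity over 200 bases, blastn 2.17.0) were found for 7 members, and none of those copies is in the tables. The 52 members and the other lists were chosen with earlier results of these data known. All members called between genotypes are given, with the 10 largest changes after stimulation among those called and the 5 largest of the other decay genes. The sites of 2 further members are not reported here.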

Additional observations from a re-analysis of the deposited data

Results flagged for a closer look

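The genotype difference in 6 members differed between the times by the interaction test in limma, on the log2 scale after median-centring. It was 1.57 higher at 4 h than at 0 h for Pnrc1. It was lower at 4 h by a change of -2.23 for Lsm7, -0.93 for Lsm5, -0.86 for Exosc8, -0.73 for Cnot7 and -0.62 for Cnot6. With the replicate number as a block, 3 of the 6 interaction calls were kept and 3 were lost. Groups of 2 samples were too small to look for single samples far from the others. Lsm7 is the member whose resting WT samples lay farthest apart in relative terms among these 6 (174 and 97.7), and without WT replicate 2 at 0 h it was not called. Pnrc1 was not called without cKO replicate 3 or 4 at 0 h or cKO replicate 4 at 4 h, with adjusted p between 0.00391 and 0.0707 over the alternatives.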

How the results depend on the processing

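Leaving out 1 replicate ended the call of a named member 17 times at 0 h, 32 times at 4 h and 37 times in the interaction, whereas at 0 h none of the 6 calls changed with the scaling. In cKO against WT at 0 h, 9 members were called higher on the deposited scale (7.63% of all genes) and 8 after quantile normalization (7.97%). Without the intensity trend 2 were called higher and 0 lower (limma, 1 lower with an unadjusted p under 0.05). By the fold rule 3 were higher. Without the filter 5 of the 6 calls were kept and 1 was lost. Leaving out 1 replicate gave 1 to 4 higher and 0 to 1 lower. At 4 h, 21 were higher on the deposited scale and 9 with equal summed coverage, and the lower calls numbered 1, 2 and, after quantile normalization, 4. They numbered 6 without the filter, 4 without the trend, 4 in the fit of the 4 samples compared alone and 5 by the fold rule, and leaving out 1 replicate gave 2 to 6 higher and 2 to 9 lower, with the fewest lower without cKO replicate 4. On the deposited scale 4 of these members turned sign, Cnot1 to 0.0108, Dcp1a to 0.0571, Exosc9 to 0.0174 and Smg9 to 0.0026. For stimulation the numbers higher and lower were 7 and 37 in WT and 7 and 38 in cKO on the deposited scale and again with equal summed coverage, and 18 and 16 and then 15 and 16 after quantile normalization. Lsm6 in WT turned to -0.0619 and -0.0116 under the first pair of these. Leaving out 1 replicate gave 30 to 32 higher and 5 to 6 lower in WT, and 28 to 30 and 6 to 9 in cKO. In the interaction 2 were higher and 1 lower on the deposited scale (6.36% and 1.52% of all genes) and with equal summed coverage (4.42% and 1.85%), 2 and 3 after quantile normalization, 2 higher by the fold rule, 1 lower without the filter, and 0 in either direction without the trend (1 higher and 10 lower with an unadjusted p under 0.05). Leaving out 1 replicate gave 0 to 2 higher and 0 to 5 lower, with no call lower without either cKO replicate at 0 h or at 4 h. The cause of these changes was not tested. Shares of all genes were not taken without the filter, without the trend or for the 4 samples compared alone. Nor were they taken with the replicate block or without 1 replicate. These member counts therefore do not show whether members lost calls more often than other genes. With the replicate number as a block, calls higher and lower numbered 33 and 5 in WT, 29 and 8 in cKO, and 1 and 2 in the interaction. Deviations of same-numbered samples correlated at 0.02 in both genotypes, and the numbers were not taken as pairs. This correlation cannot show that the pools were separate, because noise between libraries can hide a shared pool. The alternative pseudocount of 1 changed the side of the threshold for 1 of the named genotype differences, at 4 h. In simulated data of the 4 h comparison the fit called 63.5% of genes changed by 2 on the log2 scale. It called 31.8% of those changed by 1 and 0.0% of those changed by 0.58. Only 195 to 197 genes were changed there, against 1727 called higher and 2182 lower in the data, which makes the adjusted threshold stricter. These shares therefore do not measure what the fit finds in the data, where Cnot8 was called at 0.59. A member that was not called may still differ.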
